A study of Mus musculus with 6 samples.

Results

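The genes described here are the SLAM family receptors and their adaptors, 10 genes chosen by symbol (Slamf1, Slamf6, Slamf7, Slamf8, Slamf9, Ly9, Cd48, Cd84, Sh2d1a and Sh2d1b1) and looked up in a count table of 47729 genes. All 10 were found and all 10 passed the filter on low counts, which left 15330 genes for testing. The counts came from whole spleens of 3 NOD.B10 females (strain NOD.B10Sn-H2b/J) and 3 BL/10 females (strain C57BL10/SnJ). NOD.B10 mice carry the autoimmune-prone NOD background with the H2b major histocompatibility haplotype of BL/10 and develop a disease like primary Sjögren's syndrome, and BL/10 mice served as the controls. No treatment was named for either strain, and the study's methods call the libraries biological replicates of 26-week-old animals.

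Signaling lymphocytic activation molecule (SLAM) receptors are immunoglobulin-like proteins on the surface of blood cells, and most of them bind a copy of themselves on the neighbouring cell. CD48 differs in having no signaling tail of its own and serves as the ligand of CD244 and CD2. The tails of the other classical receptors recruit the small SH2-domain adaptors SAP, the product of Sh2d1a, and EAT-2, the product of Sh2d1b1 in the mouse. SAP brings in the kinase FYN and is needed for the development of NKT cells and for stable contacts between follicular helper T cells and B cells in germinal centers. The cluster of SLAM genes on mouse chromosome 1 differs in sequence and gene content between inbred strains and has been studied as a source of lupus-like autoimmunity.

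The labels of the libraries disagreed with each other. The titles and strain fields name the opposite strain from the description and from the column name for all 6 libraries, and the column names were used, so every direction given here would reverse under the titles. By description, BL/10 replicates 2 and 3 were labelled 36 weeks and the other 4 libraries 26 weeks, while the methods state 26 weeks. Total counts were 16257041 to 17160323 in NOD.B10 and 15662712 to 18298451 in BL/10, where 3 counts correspond to 0.163 to 0.201 CPM, counts scaled to the normalized library total. BL/10 replicate 1 stood apart in its content of pancreas acinar genes, which took 0.769% of its counts, against 0.107% in BL/10 replicate 2, 0.00274% in BL/10 replicate 3 and at most 0.000344% in the NOD.B10 libraries. Values below are therefore given with and without the libraries on which a result rests.

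In NOD.B10 spleens, 2 of the 10 SLAM genes were higher, the adaptor gene Sh2d1a and the receptor gene Cd84, by edgeR's quasi-likelihood test at an adjusted p under 0.05. Across all genes tested, 17.3% passed in either direction, 9.11% higher and 8.22% lower, so the members' 20% was near the background. None of the 10 was lower in edgeR or DESeq2, and 1 (Slamf9) was lower at an unadjusted p under 0.05, while 4 were higher at that level. The median log2 fold change of the members was 0.25, against 0.00 over all genes tested, with 7 positive and 3 negative values. In 5 members the libraries of the strains did not overlap, 50% against 38.0% of all genes tested. The count of 2 depended on single libraries. It was 0 without NOD.B10 replicate 1, 1 without NOD.B10 replicate 2, NOD.B10 replicate 3, BL/10 replicate 2 or BL/10 replicate 3, and 5 without BL/10 replicate 1. It was also 0 with age as a covariate and 0 without both libraries labelled 36 weeks, where in each case 2 members had an unadjusted p under 0.05. The share of all genes past the test moved too. It was 8.12%, 12.9% and 8.95% without NOD.B10 replicates 1, 2 and 3 in turn, 26.3%, 10.1% and 11.2% without BL/10 replicates 1, 2 and 3, 6.15% with age as a covariate and 6.19% without the 36-week libraries.

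**Figure D1:**
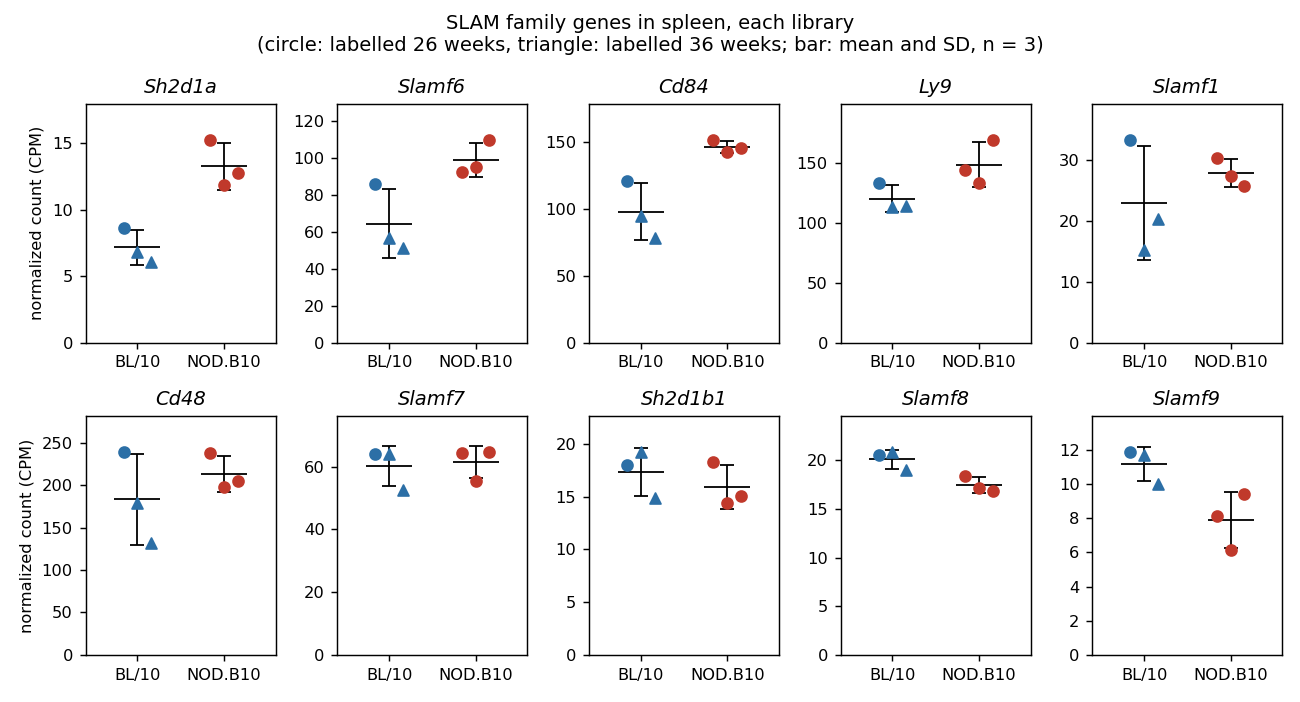
TMM-normalized CPM (vertical axes, each starting at 0) of the 10 SLAM genes in the 3 BL/10 and 3 NOD.B10 spleen libraries; points are libraries, circles those labelled 26 weeks and triangles those labelled 36 weeks, and bars the mean and SD of 3. The NOD.B10 points of Sh2d1a, Cd84 and Slamf6 lie above all BL/10 points, those of Slamf8 and Slamf9 lie below them, and those of the other 5 genes overlap.

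Sh2d1a, which encodes SAP (ENSMUSG00000005696, chromosome X from 42502453 to 42529330, plus strand, GRCm38), had the largest difference of the 10. Its TMM-normalized level was 15.3, 11.9 and 12.8 CPM in the NOD.B10 libraries and 8.64, 6.84 and 6.08 CPM in the BL/10 libraries, from 193 to 255 and from 102 to 159 counts. Every NOD.B10 library was above every BL/10 library, and in each strain replicate 1 was the highest. The means were 13.3 ± 1.76 CPM in NOD.B10 and 7.19 ± 1.31 CPM in BL/10 (SD, n = 3), a log2 fold change of 0.88 (SE 0.17, 95% interval 0.49 to 1.28, adjusted p = 0.0122 by edgeR). The adjusted p was 0.0550 without NOD.B10 replicate 1 and 0.150 with age as a covariate, where the log2 fold change was 0.62, and it ran from 9.4e-05 to 0.150 over 17 alternative fits, 14 of which kept it under 0.05. The exons of Sh2d1a share 26.6% of their length with Tenm1 on the opposite strand. Reads were counted without strand and those in the shared stretch were assigned to neither gene, and Tenm1 had 0 counts in all 6 libraries.

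Sh2d1a is a gene of T and NK cells, and T cell markers were higher in the same libraries. In NOD.B10, 16 of 18 T cell markers tested were higher (median log2 fold change 1.24), and their summed level was 1313 to 1748 CPM in NOD.B10 and 600 to 784 CPM in BL/10. Set against that sum, Sh2d1a stood at 10.8, 9.03 and 7.30 CPM per 1000 CPM of T cell markers in NOD.B10, against 11.02, 10.0 and 10.1 in BL/10. A gene at the same level in both strains comes out lower in NOD.B10 on a scale whose marker sum is higher there, as the sums of T cell and plasma cell markers were. The strains overlapped for Sh2d1a on this scale and the ratio of their means was 0.871. In bulk spleen RNA, a change in the number of cells of a type and a change in the RNA per cell cannot be told apart, and the part of the T cell markers in the Sh2d1a difference was not tested.

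**Figure D2:**
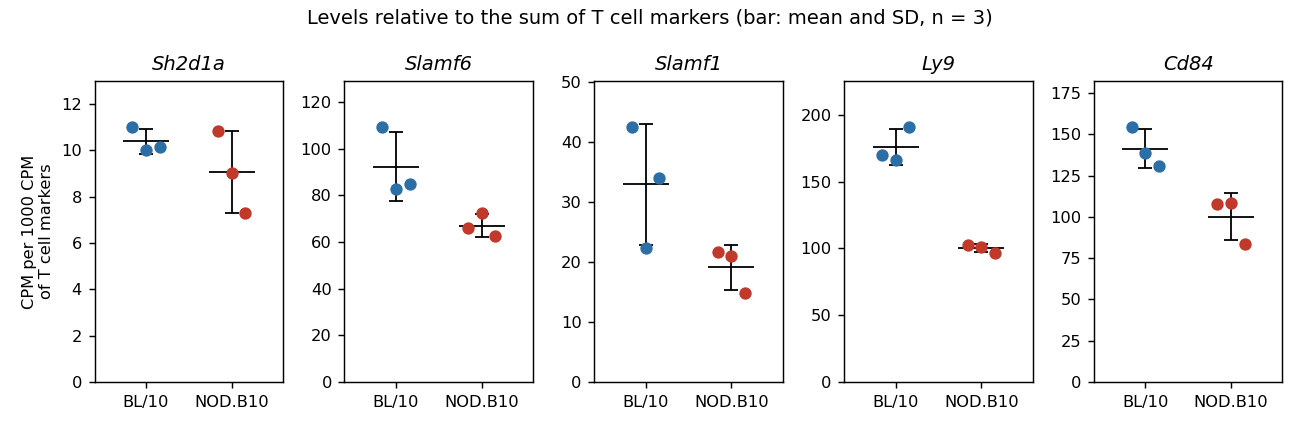
Levels of the SLAM genes of T cells in CPM per 1000 CPM of summed T cell markers (vertical axes, from 0), by strain; points are libraries and bars the mean and SD of 3. The strains overlap for Sh2d1a, and for Slamf6, Slamf1, Ly9 and Cd84 the NOD.B10 points lie below the BL/10 points.

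Among the 8 receptor genes, Cd84 alone passed the test, a share of 12.5% against 17.3% of all genes tested. The libraries were apart in 4 of the 8, or 50%, against 38.0% of all genes tested. CD84 is a receptor that binds itself and is found on B cells, T cells and myeloid cells. The Cd84 gene (ENSMUSG00000038147) lies on chromosome 1 from 171839697 to 171890718, plus strand. Its level was 152, 143 and 146 CPM in NOD.B10 and 121, 94.6 and 78.6 CPM in BL/10. The NOD.B10 libraries were close to each other and all above the BL/10 libraries, which were spread more widely, with replicate 1 nearest to NOD.B10. The means were 147 ± 4.56 and 98.1 ± 21.5 CPM (SD, n = 3), a log2 fold change of 0.58 (SE 0.15, 95% interval 0.23 to 0.93, adjusted p = 0.0371 by edgeR).

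The call of Cd84 was lost when any 1 library other than BL/10 replicate 1 was left out. Without NOD.B10 replicates 1, 2 and 3 in turn its log2 fold change was 0.56, 0.60 and 0.59, close to that of all libraries, with edgeR adjusted p of 0.123, 0.0728 and 0.100. It was 0.56 without BL/10 replicate 2 (adjusted p = 0.105), 0.44 without BL/10 replicate 3 (0.0834) and 0.75 without BL/10 replicate 1 (0.00317). With age as a covariate the log2 fold change of Cd84 was 0.28 (adjusted p = 0.324), the highest p of the 17 alternatives, and without both 36-week libraries it was also 0.28 (adjusted p = 0.235). Against marker sums, Cd84 stood at 108, 109 and 83.6 CPM per 1000 CPM of T cell markers in NOD.B10 and at 155, 139 and 131 in BL/10, lower in NOD.B10 in all 3 libraries. Per 1000 CPM of B cell markers it stood at 29.8, 32.6 and 25.8 in NOD.B10 and at 20.5, 27.8 and 21.2 in BL/10, which overlapped. B cell markers summed to 4381 to 5651 CPM in NOD.B10 and 3397 to 5915 CPM in BL/10, highest in BL/10 replicate 1, and none of the 11 passed by edgeR (1 higher at an unadjusted p under 0.05).

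Slamf6, the neighbour of Cd84, encodes Ly108, a receptor that binds itself on T, B and NK cells (ENSMUSG00000015314, chromosome 1 from 171917515 to 171953170, plus strand). Its level was 92.6, 95.1 and 109.6 CPM in NOD.B10 and 85.8, 56.4 and 51.0 CPM in BL/10. The NOD.B10 libraries were again above all BL/10 libraries, with BL/10 replicate 1 the nearest. The means were 99.1 ± 9.21 and 64.4 ± 18.7 CPM (SD, n = 3), and the log2 fold change of 0.62 (SE 0.19, 95% interval 0.18 to 1.06) did not pass in edgeR, with an adjusted p of 0.0622. Slamf6 passed in 5 of 17 alternatives, among them DESeq2 (adjusted p = 0.0220) and the edgeR fit without BL/10 replicate 1 (log2 fold change 0.87, adjusted p = 0.00211). Its adjusted p over the alternatives ran up to 0.472, with age as a covariate, where the log2 fold change was 0.21. Slamf6 was lower in NOD.B10 per 1000 CPM of T cell markers (65.8, 72.4 and 62.7 against 109, 82.7 and 85.0) and higher per 1000 CPM of B cell markers (18.2, 21.7 and 19.4 against 14.5, 16.6 and 13.8), with the libraries apart on both scales.

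The starts of Cd84 and Slamf6 are shown because these neighbours had the largest log2 fold changes among the receptors. The windows are RefSeq sequence of GRCm38.p6, plus strand, 250 bases before and 50 after the start of the gene, and RefSeq starts can differ from those of the annotation used for counting. Capitals mark matches, on either strand, to 3 short motifs: GGAAG (the core bound by ETS factors), CAGCTG (an E-box) and TGACTCA (an AP-1 site). The Cd84 window is chr1:171839447-171839746 and the Slamf6 window chr1:171917212-171917511.
Cd84: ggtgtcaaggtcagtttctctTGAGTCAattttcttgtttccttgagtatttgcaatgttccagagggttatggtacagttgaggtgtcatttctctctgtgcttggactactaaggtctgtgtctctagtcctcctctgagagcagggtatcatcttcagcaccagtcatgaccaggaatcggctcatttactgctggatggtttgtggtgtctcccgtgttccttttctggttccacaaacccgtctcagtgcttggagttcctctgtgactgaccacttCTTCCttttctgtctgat
Slamf6: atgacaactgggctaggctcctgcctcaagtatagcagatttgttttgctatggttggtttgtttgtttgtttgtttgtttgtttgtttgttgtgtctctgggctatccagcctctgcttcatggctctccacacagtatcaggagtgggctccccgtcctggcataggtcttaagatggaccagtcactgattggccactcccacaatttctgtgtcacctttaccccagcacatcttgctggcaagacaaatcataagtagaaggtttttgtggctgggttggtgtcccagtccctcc
Cd84 holds 1 GGAAG and 1 TGACTCA, and Slamf6 holds none of the 3 motifs. Of the 10 members, 8 had a window, with Ly9 and Sh2d1a unmatched. Among these 8, 7 hold GGAAG, 4 hold CAGCTG and 4 hold TGACTCA, against 71.4%, 16.3% and 5.20% of 32851 windows of the same length. A match describes letters only.

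Ly9, Slamf1 and Cd48, which complete the receptors of the cluster that are shared by many lymphocytes, did not pass the test. Ly9 encodes CD229, a receptor of T and B cells that binds itself (ENSMUSG00000004707, chromosome 1 from 171588624 to 171607410, minus strand). It stood at 144, 133 and 169 CPM in NOD.B10 and 133, 113 and 115 CPM in BL/10, where NOD.B10 replicate 2 lay just under BL/10 replicate 1. The log2 fold change of Ly9 was 0.31 (SE 0.12, adjusted p = 0.116 by edgeR), and 0.38 without BL/10 replicate 1 (adjusted p = 0.0468), the lowest p of the 17 alternatives, which ran up to 0.640.

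Slamf1 encodes CD150, the founding receptor of the family, found on T cells, B cells, macrophages and blood stem cells (ENSMUSG00000015316, chromosome 1 from 171767127 to 171801184, plus strand). It stood at 30.3, 27.5 and 25.8 CPM in NOD.B10 and 33.3, 15.2 and 20.3 CPM in BL/10. BL/10 replicate 1 was the highest of all 6 libraries and the other BL/10 libraries were the lowest. The log2 fold change of Slamf1 was 0.27 (SE 0.26, 95% interval -0.32 to 0.87, adjusted p = 0.484 by edgeR). It was 0.63 without BL/10 replicate 1 (adjusted p = 0.0234 by edgeR) and -0.26 when BL/10 replicate 1 was the only BL/10 library left. With any single library left out it stayed positive, from 0.053 to 0.63. The adjusted p of the 17 alternatives ran up to 0.896.

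Cd48 encodes the widely expressed ligand of CD244 and CD2 (ENSMUSG00000015355, chromosome 1 from 171682009 to 171705258, plus strand). Its libraries spanned 197 to 238 CPM in NOD.B10 and 131 to 239 CPM in BL/10, where replicate 1 was again the highest. The log2 fold change of Cd48 was 0.22 (SE 0.21, 95% interval -0.26 to 0.70, adjusted p = 0.486 by edgeR), and none of the 17 alternatives put it past the threshold. Of its partners, Cd2 had a log2 fold change of 0.12 (adjusted p = 0.715 by edgeR) and Cd244a one of 0.53, described below with the other partners. On the scale of T cell markers, Ly9 stood at 103, 101 and 97.0 CPM per 1000 CPM in NOD.B10 against 170, 166 and 191 in BL/10, and Slamf1 at 21.6, 20.9 and 14.8 against 42.5, 22.3 and 33.9. Both were lower in every NOD.B10 library on that scale, in ratios of means of 0.570 and 0.580. Per 1000 CPM of B cell markers, Ly9 stood at 28.3, 30.4 and 30.0 CPM in NOD.B10 and 22.6, 33.4 and 30.9 CPM in BL/10. On this scale the strains overlapped, in a ratio of means of 1.02.

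**Figure D3:**
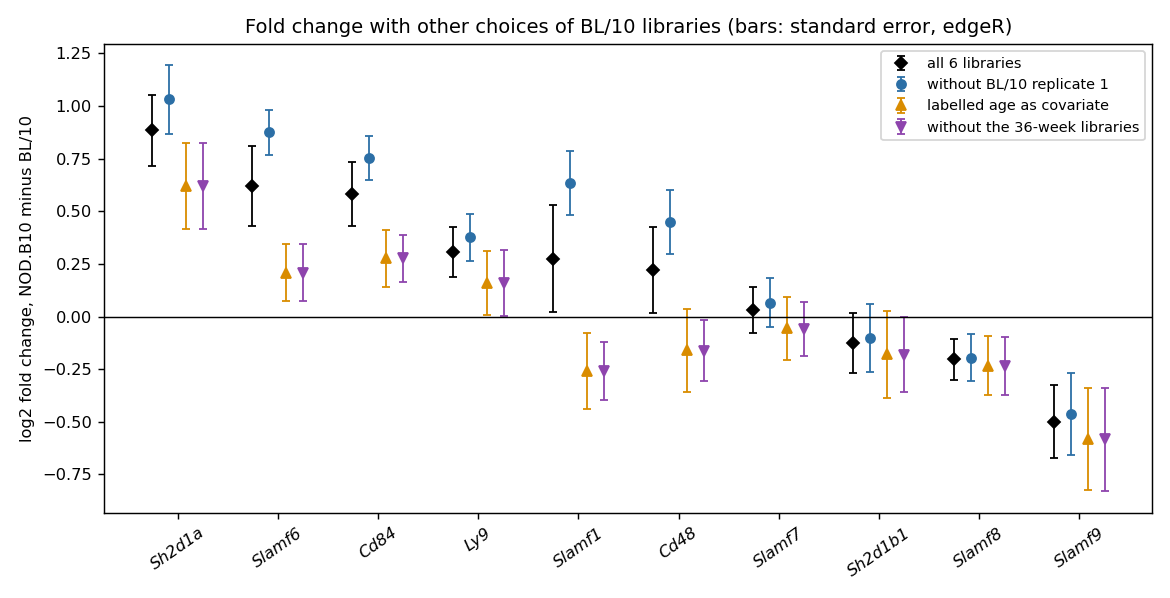
Log2 fold change, NOD.B10 minus BL/10 (vertical axis), of the SLAM genes (horizontal axis) with all 6 libraries, without BL/10 replicate 1, with labelled age as a covariate and without the 36-week libraries; bars are the standard error. The fits without BL/10 replicate 1 give Cd84 0.75 and Slamf6 0.87, and those without both 36-week libraries give them 0.28 and 0.21.

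The receptors of myeloid and plasma cells gave small or negative values. Slamf7 encodes CRACC, a receptor of NK cells, activated lymphocytes and plasma cells (ENSMUSG00000038179, chromosome 1 from 171632403 to 171653035, minus strand). It stood at 64.3, 55.5 and 64.5 CPM in NOD.B10 and 63.9, 64.0 and 52.7 CPM in BL/10, which overlapped throughout. The log2 fold change of Slamf7 was 0.03 (SE 0.11, 95% interval -0.23 to 0.28, adjusted p = 0.874 by edgeR). Plasma cell markers were higher, with 6 of 9 past the test, a median log2 fold change of 0.63 and sums of 3356 to 3861 CPM in NOD.B10 and 2127 to 2706 CPM in BL/10. Per 1000 CPM of plasma cell markers, Slamf7 stood at 19.2, 14.4 and 17.3 CPM in NOD.B10 and 23.6, 26.4 and 24.8 CPM in BL/10, with the libraries apart. Of the Slamf7 exons, 9.24% lie opposite Gm37787, which had 27 counts over all libraries.

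Slamf8 and Slamf9 encode receptors of macrophages and dendritic cells with short tails that lack the motifs bound by SAP. Slamf8 (ENSMUSG00000053318, chromosome 1 from 172581758 to 172590568, minus strand) stood at 18.4, 17.1 and 16.8 CPM in NOD.B10 and 20.5, 20.8 and 19.0 CPM in BL/10. Slamf9 (ENSMUSG00000026548, chromosome 1 from 172475358 to 172478575, plus strand) stood at 8.13, 6.14 and 9.38 CPM in NOD.B10 and 11.8, 11.7 and 10.0 CPM in BL/10. In both genes every NOD.B10 library was below every BL/10 library. The log2 fold changes were -0.20 for Slamf8 (SE 0.10, 95% interval -0.43 to 0.02, adjusted p = 0.178 by edgeR) and -0.50 for Slamf9 (SE 0.17, 95% interval -0.90 to -0.10, adjusted p = 0.0869 by edgeR). Neither passed in any of the 17 alternatives, over which the adjusted p of Slamf9 ran from 0.0542 to 0.251 and that of Slamf8 from 0.156 to 0.426, and neither changed sign.

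Marker sums of their cells overlapped between strains. Macrophage markers summed to 4320 to 5508 CPM in NOD.B10 and 4545 to 5348 CPM in BL/10, with 1 of 11 higher and 1 lower, and dendritic cell markers summed to 269 to 317 and 281 to 310 CPM, with none of 9 past the test by edgeR (3 at an unadjusted p under 0.05). Per 1000 CPM of dendritic cell markers, Slamf9 stood at 27.3, 22.9 and 29.6 CPM in NOD.B10 and 42.1, 37.7 and 35.1 CPM in BL/10, below in all 3 libraries, in a ratio of means of 0.695. Per 1000 CPM of macrophage markers the strains overlapped, in ratios of 0.708 for Slamf9 and 0.865 for Slamf8. Neutrophil markers were lower in NOD.B10 in 9 of 10 genes, with sums of 2157 to 2497 CPM against 6122 to 12789 CPM. All 6 pancreas acinar genes tested were lower, with sums of 2.27 to 3.26 CPM against 28.0 to 7643 CPM. Of the megakaryocyte and platelet markers, 1 of 6 was lower, and none of 5 erythroid markers passed by edgeR (1 lower at an unadjusted p under 0.05).

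The adaptor gene Sh2d1b1 encodes EAT-2, which couples SLAM receptors to phospholipase C gamma in NK cells (ENSMUSG00000102418, chromosome 1 from 170277320 to 170286769, plus strand). It stood at 18.3, 14.4 and 15.1 CPM in NOD.B10 and 18.0, 19.2 and 14.8 CPM in BL/10, with overlap. The log2 fold change of Sh2d1b1 was -0.12 (SE 0.14, 95% interval -0.45 to 0.21, adjusted p = 0.577 by edgeR), and no alternative put it past the threshold. NK cell markers also overlapped in sum, at 136 to 199 CPM in NOD.B10 and 146 to 206 CPM in BL/10, with 2 of 9 higher and 1 lower. Its close copy Sh2d1b2, which encodes the related adaptor ERT, did not pass the filter. The NOD.B10 libraries held 12, 3 and 2 of its reads and the BL/10 libraries 1, 0 and 0. Of the 50-base windows of Sh2d1b1 transcripts, the length of a read, 13.4% also occur in Sh2d1b2, so the counts of both are uncertain where the reads could not be placed.

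The likeness of the copies is also seen at their starts, in the windows chr1:170277068-170277367 for Sh2d1b1 and chr1:170232621-170232920 for Sh2d1b2 (RefSeq, GRCm38.p6, plus strand). Capitals mark the same motifs as above.
Sh2d1b1: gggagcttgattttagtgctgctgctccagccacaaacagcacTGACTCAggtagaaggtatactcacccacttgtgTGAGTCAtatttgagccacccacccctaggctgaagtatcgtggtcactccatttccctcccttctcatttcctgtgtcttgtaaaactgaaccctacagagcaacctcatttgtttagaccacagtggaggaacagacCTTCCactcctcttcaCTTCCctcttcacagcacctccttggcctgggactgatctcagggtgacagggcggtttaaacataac
Sh2d1b2: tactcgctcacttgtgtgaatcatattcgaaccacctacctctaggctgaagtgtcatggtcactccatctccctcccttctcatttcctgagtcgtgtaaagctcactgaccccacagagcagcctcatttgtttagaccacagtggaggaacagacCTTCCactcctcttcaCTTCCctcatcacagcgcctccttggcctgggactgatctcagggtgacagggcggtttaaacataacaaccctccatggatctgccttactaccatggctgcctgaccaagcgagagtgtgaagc
In a local alignment 222 of 238 bases were identical, or 93.3%. Both hold 2 matches to GGAAG, while Sh2d1b1 holds 2 to TGACTCA and Sh2d1b2 holds 0.

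The levels of the members relative to each other were compared per length, in CPM per kb of exons. Cd48 was the highest in both strains, at 179 ± 18.2 CPM per kb in NOD.B10 and 154 ± 45.2 in BL/10 (SD, n = 3). Ly9 followed at 45.0 ± 5.61 and 36.4 ± 3.41, and Cd84 was next at 23.4 ± 0.727 and 15.6 ± 3.43 CPM per kb. Sh2d1a was the lowest in both, at 2.41 ± 0.320 and 1.31 ± 0.238, and Slamf1 was the lowest receptor, at 4.52 ± 0.372 and 3.73 ± 1.51 CPM per kb. In NOD.B10 the order between them was Slamf7, Slamf6, Sh2d1b1, Slamf9 and Slamf8, where Slamf9 overlapped with both of its neighbours. In BL/10 it was Slamf7, Slamf9, Sh2d1b1, Slamf8 and Slamf6. There Cd84 overlapped with Slamf7, and Sh2d1b1, Slamf8 and Slamf6 each overlapped with the next, for Slamf6 with Slamf1. Slamf6 thus stood at 9.15 ± 0.850 CPM per kb and above Slamf9 (6.01 ± 1.25) in NOD.B10, and at 5.94 ± 1.73 and below Slamf9 (8.51 ± 0.774) in BL/10. The libraries of this pair were apart in NOD.B10 and overlapped in BL/10.

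Other genes of the pathway were taken from a list of 20 partners, of which 19 were tested. By edgeR 5 were higher in NOD.B10, or 26.3%, and none lower (0 also at an unadjusted p under 0.05). Of all genes tested, 17.3% passed in either direction and 9.11% higher. Of the 19 log2 fold changes, 16 were positive, with a median of 0.13. The kinase gene Fyn, whose product binds SAP, stood at 145, 130 and 140 CPM in NOD.B10 and 97.5, 87.4 and 98.5 CPM in BL/10, with every NOD.B10 library above. Its log2 fold change was 0.55 (SE 0.09, adjusted p = 0.00630 by edgeR), and 0.51 with age as a covariate (adjusted p = 0.0684). Plcg1, the phospholipase C gamma of T cells, stood at 77.8 ± 7.72 and 46.6 ± 3.35 CPM (SD, n = 3), a log2 fold change of 0.74 (SE 0.10, adjusted p = 0.00316 by edgeR) that passed in all 17 alternatives. Prkcq, the protein kinase C theta gene, rose by 0.66 on the log2 scale (adjusted p = 0.0164), and Inpp5d, the gene of the phosphatase SHIP-1, by 0.37 (adjusted p = 0.0426), both by edgeR. Fyn, Plcg1 and Prkcq are genes that T cells use widely outside the SLAM pathway, and the part of the T cell markers in their differences was not tested.

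Among the partners, Cd244a, the gene of the CD48 receptor 2B4 of NK cells and some T cells (chromosome 1 from 171559193 to 171609746, plus strand), is itself a SLAM receptor of the cluster. It stood at 43.2, 37.0 and 30.0 CPM in NOD.B10 and 26.9, 25.3 and 23.9 CPM in BL/10, above in all 3 libraries. The log2 fold change was 0.53 (SE 0.14, adjusted p = 0.0370 by edgeR). Cd244a passed in 11 of 17 alternatives, over which its adjusted p ran from 0.0109 to 0.297. It missed the threshold without NOD.B10 replicate 1 (log2 fold change 0.40, adjusted p = 0.126), NOD.B10 replicate 2 (0.53, 0.0839), BL/10 replicate 2 (0.53, 0.0994) or BL/10 replicate 3 (0.49, 0.112). Per 1000 CPM of NK cell markers it overlapped between strains, in a ratio of means of 1.44. The count of partners past the test was 8 without BL/10 replicate 1, where 26.3% of all genes passed, and 2 without BL/10 replicate 2 or BL/10 replicate 3, where 10.1% and 11.2% did. It was 3 without each NOD.B10 library in turn (8.12%, 12.9% and 8.95% of all genes) and 1 with age as a covariate or without the 36-week libraries (6.15% and 6.19%). Prkcq missed the threshold without NOD.B10 replicate 3 (adjusted p = 0.0520), BL/10 replicate 2 (0.0522) or BL/10 replicate 3 (0.0588). Inpp5d missed it without each library but BL/10 replicate 1, with adjusted p from 0.0579 to 0.137. Over all alternatives their edgeR adjusted p reached 0.195 and 0.229.

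**Figure D4:**
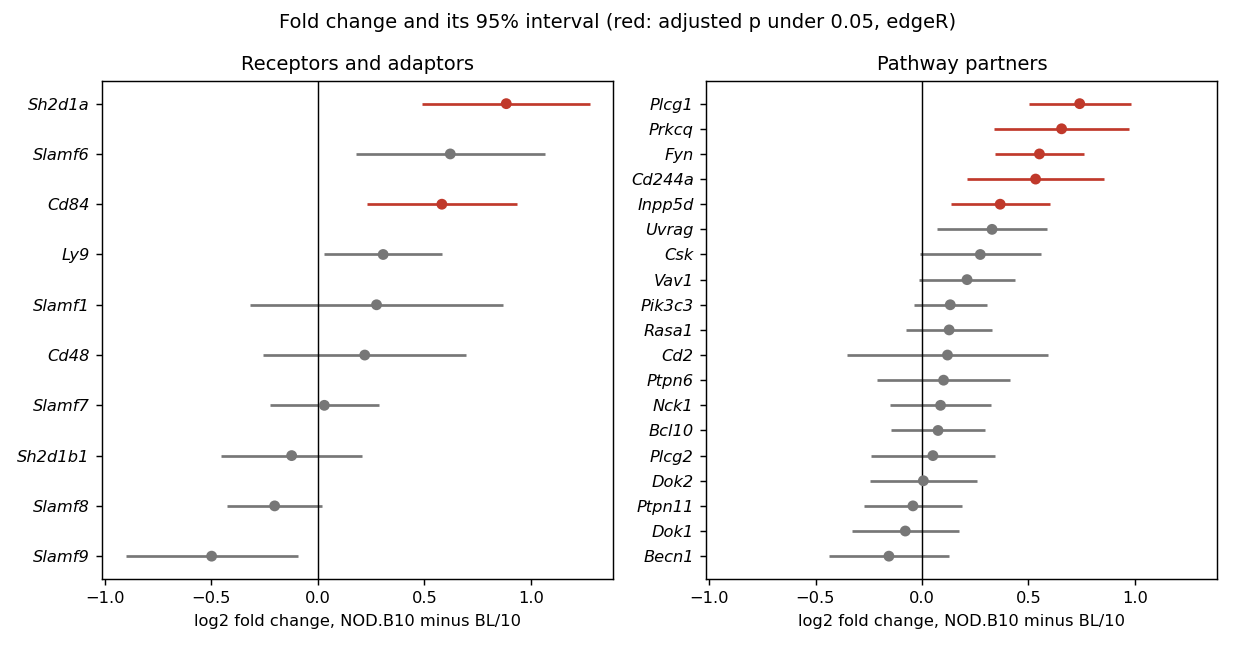
Log2 fold change, NOD.B10 minus BL/10 (horizontal axis), with 95% interval, of the 10 SLAM genes (left) and 19 partners (right). Red marks genes past edgeR's test at an adjusted p under 0.05: Sh2d1a and Cd84 on the left, and Plcg1, Prkcq, Fyn, Cd244a and Inpp5d on the right.

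NKT cells and follicular helper T cells depend on SAP. A list of 10 genes linked to these cells, called SAP-dependent T cell genes below, was followed. The list includes Cd1d1 and Cxcr5, and its name does not mean that each gene is confined to T cells. By edgeR 2 were higher in NOD.B10, or 20%, and none lower (0 also at an unadjusted p under 0.05). Of all genes tested, 17.3% passed in either direction and 9.11% higher. The median log2 fold change of the 10 was 0.60, with 8 positive and 2 negative values. The negative values were those of Cd1d1 (-0.13) and Il4 (-0.57), and neither gene passed by edgeR. Cd40lg, the ligand through which T cells activate B cells, stood at 6.40, 5.83 and 8.60 CPM in NOD.B10 and 2.50, 1.54 and 1.31 CPM in BL/10. Every NOD.B10 library was above every BL/10 library, a log2 fold change of 1.95 (SE 0.28, adjusted p = 0.00358 by edgeR) that passed in all 17 alternatives. Icos, a costimulator of follicular helper T cells, stood at 24.4, 24.4 and 24.2 CPM in NOD.B10 and 16.4, 14.4 and 10.8 CPM in BL/10, a log2 fold change of 0.81 (SE 0.15, adjusted p = 0.0113 by edgeR). With age as a covariate Icos had a log2 fold change of 0.57 (adjusted p = 0.137 by edgeR), the highest p of its alternatives. T cell markers were also higher in NOD.B10, 16 of 18 by edgeR with a median log2 fold change of 1.24. The part of the T cell markers in the differences of Cd40lg and Icos was not tested. The factors that define these lineages did not pass, with a log2 fold change of 0.52 for Bcl6 of follicular helper T cells (adjusted p = 0.0637 by edgeR) and 0.68 for Zbtb16 of NKT cells (adjusted p = 0.0882 by edgeR). The inhibitory receptor gene Pdcd1 had 1.07 (adjusted p = 0.0537 by edgeR), and the NOD.B10 libraries held 39, 26 and 30 counts of the cytokine gene Il21 against 50, 4 and 2 in BL/10, with BL/10 replicate 1 the highest. Bcl6, Zbtb16, Pdcd1, Il21, Cd1d1, Cxcr5 and Il4, like Cd2 and Sh2d1b2 above, were chosen for naming after their values were seen. Without BL/10 replicate 1, 7 of the 10 genes passed, where 26.3% of all genes did. With age as a covariate or without the 36-week libraries 1 passed, where 6.15% and 6.19% of all genes did.

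On chromosome 1, Cd244a, Ly9, Slamf7, Cd48, Slamf1, Cd84 and Slamf6 lie in this order within 394 kb. Slamf9 and Slamf8 start 708 and 815 kb after the start of Slamf1, and Sh2d1b1 starts 1490 kb before it. In the window from 171088624 to 173090568, 500 kb beyond the outermost of the 8 receptor genes among the members, 43 genes other than the members were tested, Cd244a among them, of which 16 passed by edgeR, 6 higher and 10 lower, or 37.2% against 17.3% of all genes. The libraries were apart in 51.2% of them against 38.0%. The share past the test moved with the libraries, as did that of all genes. It was 15.9% against 8.12% of all genes without NOD.B10 replicate 1 (7 genes), 15.9% against 12.9% without NOD.B10 replicate 2 (7 genes) and 20.5% against 8.95% without NOD.B10 replicate 3 (9 genes). It was 39.5% against 26.3% without BL/10 replicate 1 (17 genes), 18.6% against 10.1% without BL/10 replicate 2 (8 genes) and 13.6% against 11.2% without BL/10 replicate 3 (6 genes). With age as a covariate it was 11.6% against 6.15%, and without both 36-week libraries 8.89% against 6.19%. The share was above that of all genes in each of these fits, which have most of their libraries in common. Some margins were small, such as 15.9% against 12.9% without NOD.B10 replicate 2 and 13.6% against 11.2% without BL/10 replicate 3. Reads of both strains were counted on the same reference, GRCm38. The part that strain differences in sequence or gene content had in the counts of this region was not tested.

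**Figure D5:**
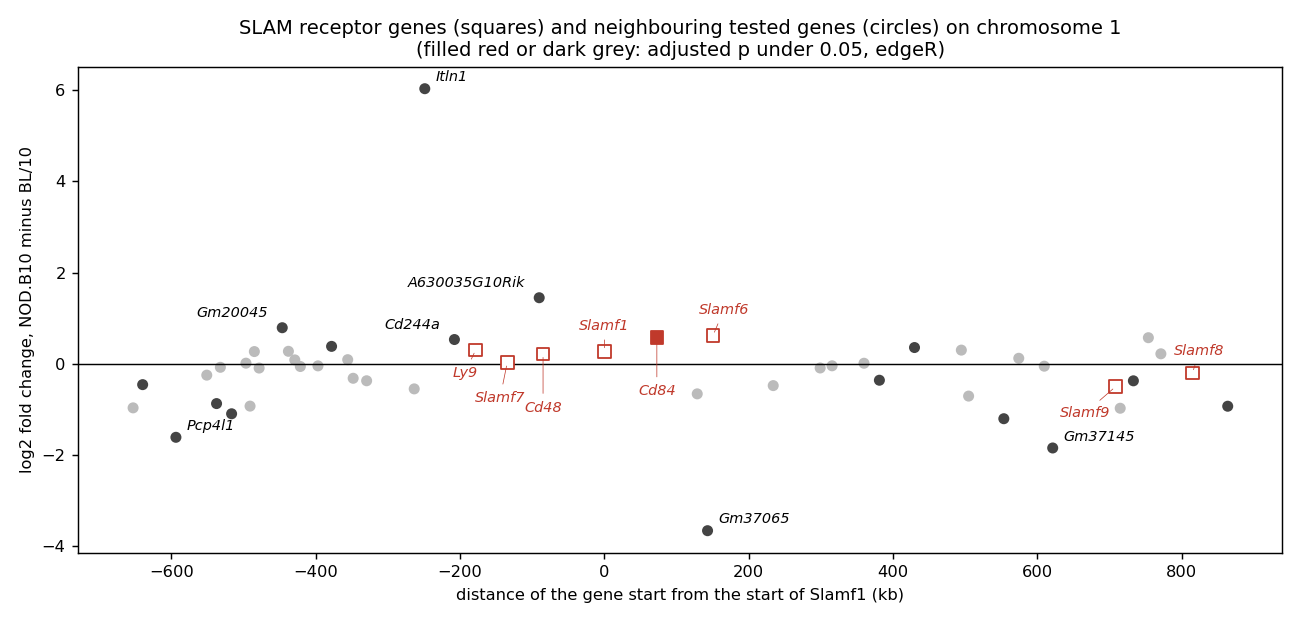
Log2 fold change, NOD.B10 minus BL/10 (vertical axis), of SLAM receptor genes (squares) and other tested genes (circles) by distance of the gene start from that of Slamf1 in kb (horizontal axis). Filled red squares and dark circles passed edgeR's test. Cd84 passed among the squares, and Itln1 (6.03) and Gm37065 (-3.66) lie farthest from 0.

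The largest differences near the cluster were in genes outside the family. Itln1, which encodes the lectin intelectin, was counted 32, 34 and 23 times in the NOD.B10 libraries against 1, 0 and 0 in BL/10, that is, in all NOD.B10 libraries and in 1 BL/10 library. The ratio of its depth-scaled counts was 89.3, with a 95% exact interval for counting error of 15.6 to 3565, and its edgeR adjusted p was 7.3e-04. The transcript Gm37065, which spans the start of Slamf6 on the opposite strand (171909957 to 171919356) without sharing exon bases with it, was counted 4, 3 and 1 times in the NOD.B10 libraries against 30, 36 and 39 in BL/10, a log2 fold change of -3.66 (adjusted p = 0.00116 by edgeR). This is the opposite direction from Slamf6. Gm37145 (-1.84, adjusted p = 0.00764) and Pcp4l1 (-1.61, adjusted p = 0.00118) were also lower in NOD.B10 by edgeR. A630035G10Rik had a log2 fold change of 1.45 (adjusted p = 0.0304) and Gm20045 one of 0.79 (adjusted p = 0.0417), both by edgeR. The former lost its call without NOD.B10 replicate 1 (adjusted p = 0.112), NOD.B10 replicate 3 (0.103), BL/10 replicate 2 (0.0947) or BL/10 replicate 3 (0.0978), and the latter without any 1 library (adjusted p from 0.0577 to 0.111), with adjusted p up to 0.315 and 0.223 over all alternatives. Pcp4l1 passed in all 17 alternatives. Itln1, Gm37065 and Gm37145 passed in the 16 that could be fitted for them. The fit with at least 10 counts in every library left these 3 genes out, being low in 1 strain.

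The genes with profiles most like those of the 2 members past the test were found by the mean absolute difference of centred log2 CPM over the 6 libraries, among 14217 genes. For Cd84 they were Fkbp11, which is also in the list of plasma cell markers, at 0.0309, and Adamdec1, at 0.0457. For Sh2d1a they were Mdfi, at 0.0249, and Ifitm1, at 0.0611. The likeness describes these 6 libraries only.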

How the data were processed

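RNA from spleens was sequenced by the authors as 50-base single-end reads. Per the deposited table's header, the authors made raw counts per gene with featureCounts 1.5.1 on exons of Ensembl annotation 84 (GRCm38), without strand and without multi-mapping or multi-overlap options. The paper names Tophat2 on mm10 as the aligner and the submitters' processing notes name HISAT2 2.0.5. The deposited counts were not normalized. Libraries named in the header as Myd88-deficient were not analysed here. For BL/10 replicate 3 the column was matched by library number and strain, since the ends of its column name and description differ. The choice of column names over titles was made with results known.

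Symbols came from GENCODE M21 (47224 of 47729 identifiers matched). Counts were analysed with R 4.3.3, edgeR 4.0.16 (filterByExpr, TMM, quasi-likelihood test, Benjamini-Hochberg over 15330 genes, threshold 0.05, BL/10 as reference), limma 3.58.1 and DESeq2 1.42.0. The code was tested on simulated data. CPM are TMM-normalized. Intervals are at 95%. Those of the log2 fold changes come from the edgeR fit and include variation between libraries. The exact interval of the Itln1 ratio and the floors of 3 counts cover counting error only. An exact permutation test of 3 libraries against 3 cannot give a p below 0.1 for a single gene, so the fit across all genes was used.

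The members and lists were chosen with earlier results of these data known. The lists were pathway partners, SAP-dependent T cell genes, and markers of T, B, plasma, NK, dendritic and erythroid cells, macrophages, neutrophils, megakaryocytes and platelets, and pancreas acini. Named were all members, Cd244a, the partners and SAP-dependent genes past the threshold, the 3 largest differences each way among neighbours past it, and for each member past it the 2 genes with the nearest profile. Alternatives were other scaling factors, tests, filters, a stricter threshold, a replicate block, age as a covariate and leaving out each library. The fit without the libraries labelled 36 weeks was chosen after seeing the data.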

Additional observations from a re-analysis of the deposited data

How the results depend on the processing

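Of 170 log2 fold changes of the 10 members over 17 fits, 144 kept their direction and their side of the threshold, 10 lost a call, 7 gained 1 and 9 reversed. The reversals were in genes that had not passed. With age as a covariate, values were -0.16 for Cd48, -0.26 for Slamf1 and -0.056 for Slamf7. Without both libraries labelled 36 weeks they were -0.16, -0.26 and -0.057. Slamf7 also gave values from -0.065 to 0.10 with each library left out, among them -0.0033 without NOD.B10 replicate 1, -0.0047 without NOD.B10 replicate 3 and -0.065 without BL/10 replicate 3.

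The counts of genes past the test moved with the settings. They are given here without the share of all genes past the test in the same setting. A changed count is therefore not read as a change particular to a list. The 2 members became 0 at an adjusted p under 0.01, 0 with age as a covariate and 0 to 5 with a library left out. They were 3 in some alternatives, among them DESeq2 and limma-voom. The 5 partners became 2 at the stricter threshold, 1 with age as a covariate and 2 to 8 with a library left out. The 2 SAP-dependent T cell genes became 4 by DESeq2, limma-voom, the likelihood ratio test and without a filter, 1 at the stricter threshold, with age or without the 36-week libraries, and 2 to 7 with a library left out. The 16 neighbours became 10 with at least 10 counts in every library, 6 at the stricter threshold, 5 with age, 4 without the 36-week libraries and 6 to 17 with a library left out. The causes of these changes were not tested, and the fits with libraries left out also had fewer libraries. Age and strain were nearly confounded, since with age in the fit BL/10 replicate 1 alone stood for BL/10 at 26 weeks.

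Deviations of same-numbered libraries correlated at 0.03, 0.17 and -0.08 over genes, and those of differently numbered libraries at -0.18 to 0.16. With 3 libraries per strain, these values cannot settle whether replicate numbers pair the libraries. With a replicate block the counts, again without the share of all genes, were 2 members, 6 partners, 4 SAP-dependent genes and 15 neighbours.

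Depth limited the low genes. The smallest count of a member was 100 (Slamf9), while Sh2d1b2 was at or under the floor of 3 counts in 5 of 6 libraries.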
